A study of Mus musculus with 11 samples.

Results

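PDX1, the homeodomain factor that maintains the beta cell, acts through partner proteins and is itself modified and degraded. The genes described here are 9 known partners of PDX1 or regulators of its turnover, *Spop*, *Pcif1*, *Psmd9*, *Setd7*, *Smarca4*, *Smarca2*, *Ep300*, *Crebbp* and *Chd4*, chosen by name and found by Ensembl ID as 9 of the 19329 gene IDs of the table. Bulk RNA-sequencing of whole islets covered male mice of 14 weeks, with 6 libraries of wild-type animals and 5 of animals carrying P33T on both copies of *Pdx1* (PDX1P33T). The line was made by CRISPR-Cas9 in C57BL/6N embryos, the mice ate chow, and the islets were cultured before lysis. The methods call the wild-type mice littermates but also say that cohorts came from homozygous intercrosses. The study's legend also gives several mice for each replicate, so a library may be a pool, and n and SD refer to libraries. The mutation is present in every cell from the zygote on, and all cells of the islet contribute to the RNA.

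The edit changes 1 base of *Pdx1*, which GENCODE vM21 places on chromosome 5 of GRCm38 with 2 exons encoding 284 residues. It lies in exon 1 at coding position 97, genome position 147270335, and turns codon 33 from CCT (proline) into ACT (threonine). The repair oligonucleotide is shown because it is what separates the genotypes. It matches the plus strand at chr5:147270275-147270394 with the substitution C61A, counted from its 5′ end, and capitals mark the edited codon.

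P33T repair oligonucleotide: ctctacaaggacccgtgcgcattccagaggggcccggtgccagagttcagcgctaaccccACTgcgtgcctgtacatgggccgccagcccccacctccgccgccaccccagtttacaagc

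As background, the N-terminal transactivation domain of PDX1, where P33T lies, binds the histone acetyltransferases p300 (*Ep300*) and CBP (*Crebbp*), which acetylate histones at active enhancers and promoters. PDX1 also recruits SETD7, which methylates histone H3 at lysine 4 and PDX1 itself, and remodelers of the SWI/SNF family, whose ATPase is BRG1 (*Smarca4*) or BRM (*Smarca2*). CHD4, the ATPase of the NuRD complex, binds PDX1 too, in a complex better known for repression. SPOP is the substrate receptor of a cullin 3 ubiquitin ligase that binds the C-terminus of PDX1 and promotes its turnover. The PDX1 literature called this protein PCIF1, whereas the gene symbol *Pcif1* belongs to a methyltransferase of the mRNA cap. *Psmd9* encodes Bridge-1, an assembly chaperone of the 19S proteasome that also binds PDX1 and the E-protein TCF3.

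The values are FPKM, fragments scaled by gene length and library size, so levels of different genes can be set side by side, with a limit. For the genes described here the length takes in all annotated exons, so FPKM is understated where the transcripts made are shorter. How far this shifts the order of levels was not tested. The libraries held 19311937 to 37094286 counted reads. The PDX1P33T columns carry their own gene IDs, but most wild-type values are misplaced and sit beside the ID of another gene. A wild-type row was therefore used only where it was identified, for the genes described here by the length and level of the gene and for some others by read counts that the study lists. By that rule *Pcif1*, *Setd7*, *Ep300*, *Crebbp* and *Chd4* have a wild-type row. *Smarca4* has one only under a looser limit on rivals of the same length, and *Spop* only by a choice made after the values were seen. *Psmd9* and *Smarca2* have none, and no genotype difference is given for them. Where the rule could be checked, it was right for 403 of 403 genes, and under the looser limit for 643 of 643. The exon length recovered for each of the 9 genes was that of GENCODE vM21, from 3159 bases for *Spop* to 14273 for *Ep300*.

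Among the libraries, wild-type replicates 1, 2 and 3 and PDX1P33T replicate 2 stood apart. The SD of their log2 deviations from the median of their genotype, over the 4725 genes in the genotype comparison, was 0.413, 0.343, 0.552 and 0.437. In the other 7 libraries it was between 0.159 and 0.232. PDX1P33T replicate 2 matters most for the genes described here. It held the lowest value of 7 of the 9 genes among the PDX1P33T libraries and the highest of the other 2, *Spop* and *Psmd9*.

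In PDX1P33T islets all 9 genes were detected in 5 of 5 libraries, with at least 479 reads each. Their mean FPKM spanned 31.3 for *Spop* to 2.10 for *Crebbp*, against a median of 1.77 over the 18963 gene IDs with a value in at least 4 of 5 libraries. *Pdx1* itself, which has no identified wild-type row, had 78.7, 80, 79.8, 78.7 and 77.9 FPKM in replicates 1 to 5. It varied less than any of the 9, with a coefficient of variation of 1.12%. Within a library *Pdx1* was 2.53 ± 0.147 times as high as *Spop* and 26.6 ± 2.50 times as high as *Psmd9* (SD, n = 5).

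**Figure D1:**
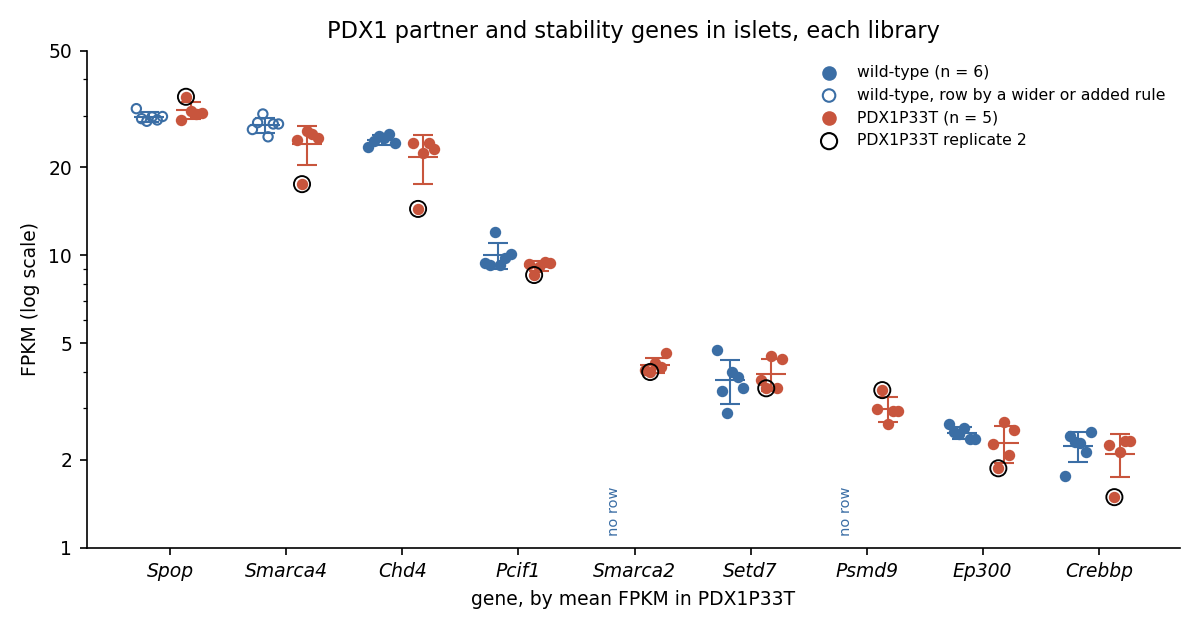
FPKM of the 9 genes on a log axis, 1 point per library, with the mean as a bar and the SD as whiskers. Blue is wild-type (n = 6, open where the row rests on a wider or added rule), red is PDX1P33T (n = 5), and black rings mark PDX1P33T replicate 2, which is lowest for *Smarca4*, *Chd4*, *Pcif1*, *Smarca2*, *Setd7*, *Ep300* and *Crebbp* and highest for *Spop* and *Psmd9*.

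The order of levels fell into steps. *Spop* stood first at 31.3 ± 2.12 FPKM, above *Smarca4* at 24.0 ± 3.66 in 5 of 5 libraries and with no overlap of their ranges. *Smarca4* was above *Chd4* (21.6 ± 4.13) in 5 of 5 libraries, but their ranges overlapped. *Pcif1* followed at 9.20 ± 0.380, clear of *Chd4* by 2.35 times and of the next gene, *Smarca2*, by 2.18 times. *Smarca2* (4.21 ± 0.254) and *Setd7* (3.94 ± 0.490) overlapped, with *Smarca2* higher in 4 of 5 libraries. *Psmd9* (2.99 ± 0.294) was below *Setd7* in every library and overlapped *Ep300* (2.28 ± 0.332). *Ep300* in turn overlapped *Crebbp* (2.10 ± 0.347), with the higher of the pair above in 4 of 5 libraries in both cases. The first 3 genes ranked above 93.7%, 91.8% and 90.9% of the gene IDs, and *Crebbp* above 52.9%.

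Expression of the genotypes was tested with limma on log2(FPKM + 0.1) over the 4725 genes with a wild-type row by the main rule or by listed reads. Calls needed a change of 1.5-fold or more together with a p, adjusted by Benjamini-Hochberg, of 0.05 or less. Of the 5 genes with a row by the main rule 0 were called, against a background of 0.0847% of all genes in the comparison (4 genes, either direction) and 0.0289% of the 3455 matched by length and level (1 gene). None of the 5 had an unadjusted limma p under 0.05. Of the genes matched by length and level 7.44% had one with higher and 7.03% with lower expression in PDX1P33T, and of all genes in the comparison 15.7% and 18.3%. Of the 1673 genes whose row was identified by read counts, from the part of the study's list held here, 38.6% and 48.5% had one, and 0.179% were called. Genes placed in this way thus reach a small p far more often than those matched by length and level. They also raise the shares over all genes. Whether the part held was picked out by a difference between genotypes was not tested, so its shares are no neutral background. *Smarca4*, fitted with the 6335 genes of the looser limit, was not called either. Nor was *Spop*, fitted with its row added, but that row was taken for its nearness in level. The 95% intervals of the 5 fold changes ran from 0.71 at the lowest bound (*Chd4*) to 1.28 at the highest (*Setd7*), so each left out a change of 1.5-fold in either direction. A change of over 4-fold could not have been seen, since the rule finds no row for such a gene. In bulk RNA, fewer cells of a type and less RNA per cell cannot be told apart.

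**Figure D2:**
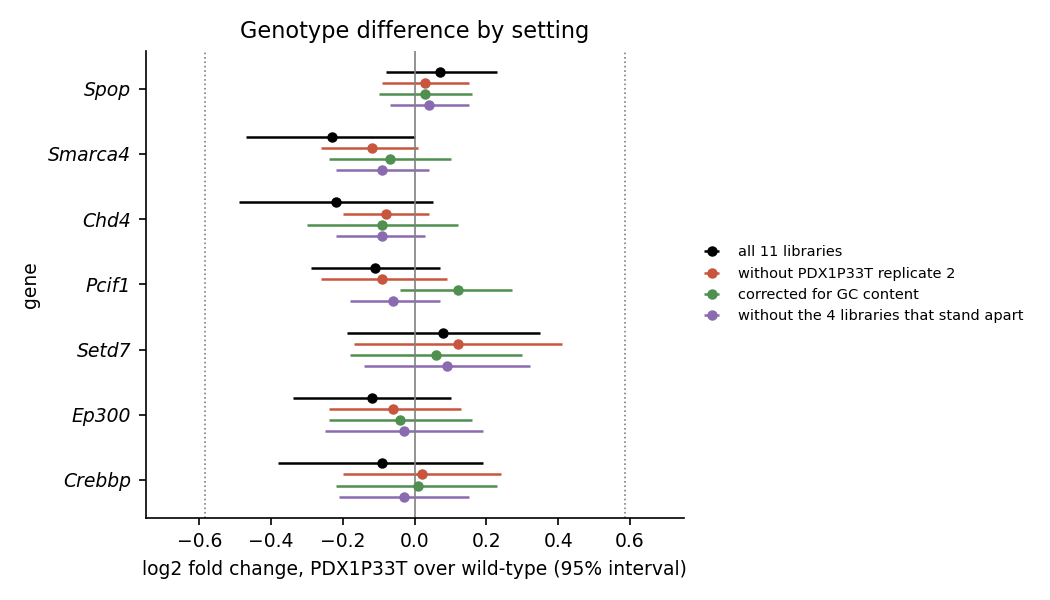
Log2 fold change of PDX1P33T over wild-type with its 95% interval for the 7 genes compared, under 4 settings. The wild-type row of *Spop* was chosen for its nearness in level, which favours a small change. Dotted lines mark a fold change of 1.5 in each direction, and no interval reaches them. *Smarca4* and *Chd4* move from -0.23 and -0.22 with all 11 libraries to -0.12 and -0.08 without PDX1P33T replicate 2.

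The acetyltransferases come first among the roles, since the domain that carries P33T binds them. *Ep300* had 2.65, 2.49, 2.44, 2.56, 2.36 and 2.36 FPKM in wild-type replicates 1 to 6. In PDX1P33T replicates 1 to 5 it had 2.26, 1.87, 2.69, 2.08 and 2.52 FPKM. The PDX1P33T values lay on both sides of the wild-type ones, 3 below all of them and 1 above. *Crebbp* had 1.76, 2.42, 2.30, 2.28, 2.13 and 2.49 FPKM in wild-type and 2.24, 1.49, 2.13, 2.31 and 2.31 in PDX1P33T. Here the lowest value of each genotype stood alone and the other 9 lay together, between 2.13 and 2.49. The log2 fold change of PDX1P33T over wild-type was -0.12 (SE 0.1, 95% interval -0.34 to 0.10) for *Ep300* and -0.09 (SE 0.130, -0.38 to 0.19) for *Crebbp*. Neither passed the test (limma, Benjamini-Hochberg adjusted p = 1 for both over 19329 gene IDs), and two-sided exact permutation tests of the means gave p = 0.227 and 0.511. Leaving out 1 library at a time moved the log2 fold change of *Ep300* between -0.18 (without PDX1P33T replicate 3) and -0.06 (without PDX1P33T replicate 2), and *Crebbp* between -0.16 (without wild-type replicate 1) and 0.02 (without PDX1P33T replicate 2).

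Since the pair shares its library, the ratio of *Ep300* to *Crebbp* does not depend on the scaling of a library. On the log2 scale it was 0.59, 0.04, 0.08, 0.17, 0.15 and -0.08 in wild-type and 0.01, 0.32, 0.34, -0.15 and 0.13 in PDX1P33T. The means were 0.16 ± 0.231 (SD, n = 6) and 0.13 ± 0.209 (n = 5), close to equal levels of the 2 genes, and the ranges overlapped. The difference of -0.03 did not pass a two-sided exact permutation test (p = 0.84). The planned counterpart, *Smarca4* to *Smarca2*, had no wild-type value, so no adjustment over ratios was made. Of the 7 other acetyltransferase genes listed, *Kat2a* was the highest in PDX1P33T (10.9 ± 1.71 FPKM) and *Kat6b* the lowest (0.675 ± 0.0657). *Kat6b*, the only one of them with a wild-type row, had a log2 fold change of 0.08 (limma, adjusted p = 1).

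*Setd7*, the methyltransferase, had 4.76, 3.43, 2.89, 3.99, 3.85 and 3.51 FPKM in wild-type and 3.74, 3.51, 4.51, 3.51 and 4.41 in PDX1P33T. All 5 mutant values lay inside the wild-type range. It varied more than any other of the 7 genes in wild-type, with a coefficient of variation of 16.9%. The log2 fold change was 0.08 (SE 0.125, 95% interval -0.19 to 0.35, limma, adjusted p = 1), and the exact permutation p was 0.574. The log2 fold change was 0.15 without wild-type replicate 1, the highest library, and 0.01 without wild-type replicate 3, the lowest. Within PDX1P33T libraries it was 2.59 ± 0.443 times as high as *Kmt2a*, which encodes the MLL1 methyltransferase of the same residue. The list of 15 other genes that write or erase this mark had a median of 3.05 FPKM and ran from 1.18 ± 0.138 for *Kmt2c* to 30.3 ± 13.7 for *Dpy30*, a small core subunit. Of its 6 genes with a wild-type row 0 were called. *Rbbp5*, another core subunit, and *Kmt2a* had the smallest p, both under 0.05 before adjustment, at log2 fold changes of 0.19 and -0.45 (limma, adjusted p = 0.499 and 0.527) and on rows identified by listed reads.

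In *Chd4* and *Smarca4*, the ATPases of the 2 remodelers, PDX1P33T replicate 2 weighed heavily. *Chd4* had 23.5, 24.6, 25.5, 25.1, 25.9 and 24.1 FPKM in wild-type. In PDX1P33T it had 24.2, 14.4, 22.4, 24.2 and 23.0. Replicate 2 stood far below the rest, and of the other 4 values 2 lay below all wild-type values and 2 inside their range. The log2 fold change was -0.22 (SE 0.126, 95% interval -0.49 to 0.05, limma, adjusted p = 0.87), a ratio of 0.859. A two-sided exact permutation test of the means, 24.8 ± 0.907 against 21.6 ± 4.13 FPKM, gave p = 0.0173, with no adjustment for the 7 genes so tested. Without PDX1P33T replicate 2 the log2 fold change was -0.08 and the exact permutation p was 0.0571.

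*Smarca4* had 26.9, 28.4, 30.4, 25.4, 28.1 and 28.1 FPKM in wild-type, by the looser limit, and 24.8, 17.5, 26.5, 25.9 and 25.1 in PDX1P33T. Of the wild-type values 5 of 6 were above every PDX1P33T value, and 3 of 5 PDX1P33T values were below every wild-type one. The log2 fold change was -0.23 (SE 0.108, 95% interval -0.47 to 0.00, limma, unadjusted p = 0.0512, adjusted p = 0.567). The exact permutation test gave p = 0.013 for means of 27.9 ± 1.66 and 24.0 ± 3.66 FPKM, and p = 0.0381 without PDX1P33T replicate 2, where the log2 fold change was -0.12. With each library corrected for the GC content of the genes it was -0.07 (limma, adjusted p = 1). Without the 4 libraries that stood apart it was -0.09, with an exact permutation p of 0.143, against 0.171 for *Chd4*.

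Part of what set PDX1P33T replicate 2 apart went with the GC content of the genes. Of 11190 gene IDs with a mean of at least 1 FPKM in PDX1P33T, 11032 had a GC value. Over these its median log2 deviation from the median of the genotype fell from 0.31 in the 20% of genes lowest in GC to -0.22 in the 20% highest. Over all 11190 it also went from 0.26 in the shortest 20% of genes to -0.09 in the longest 20%. *Chd4* (52.9% GC) deviated by -0.67 in that library, *Crebbp* (51.7%) by -0.56 and *Smarca4* (55.9%) by -0.52, while the medians of the GC classes they fall in, each 20% of the genes with a GC value, were -0.09, 0.00 and -0.22. Over all 11190 gene IDs the SD of the deviations in that library was 0.432, and 1.84%, 4.05% and 5.19% of them had a lower one than these 3 genes. How far GC content accounts for them was not tested in that library, but over all libraries the GC correction took *Chd4* from -0.22 to -0.09 and *Smarca4* from -0.23 to -0.07. *Ep300* and *Smarca2* (51.1% each) deviated by -0.26 and -0.05, *Pcif1* (56.9%) by -0.13, *Psmd9* (50.8%) by 0.23 and *Spop* (47.0%) by 0.18. *Setd7* (47.6%) deviated by -0.09, against a median of 0.10 in its class. Other libraries had GC trends too, over the genes in the genotype comparison. From the lowest to the highest GC class, wild-type replicate 1 fell from 0.14 to -0.19 and wild-type replicate 3 rose from -0.10 to 0.24. PDX1P33T replicates 1 and 4 rose from -0.13 to 0.14 and from -0.11 to 0.12, and the rest moved less. The GC correction acts on each library.

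**Figure D3:**
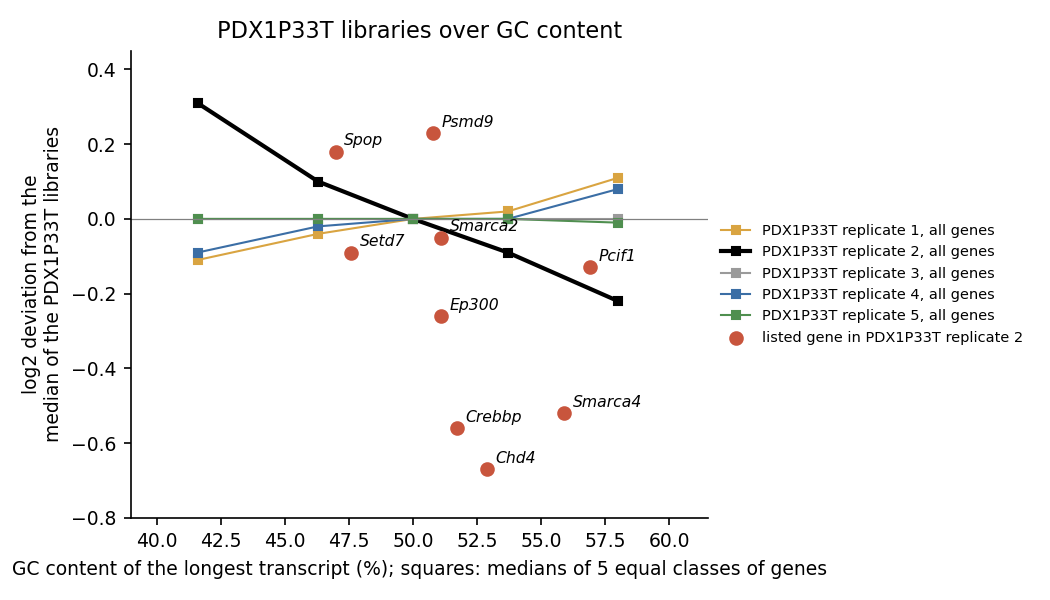
Median log2 deviation of each PDX1P33T library from the median of the 5, for the 11032 gene IDs with a GC value in 5 classes of nearly equal size by GC content (squares, placed at the median GC), with the 9 genes in replicate 2 as red points. Replicate 2 falls from 0.31 to -0.22 across the classes, and *Chd4*, *Crebbp* and *Smarca4* lie below its line, at -0.67, -0.56 and -0.52.

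Markers of other cells moved with the same library. The summed level of 8 acinar markers was 110 FPKM in PDX1P33T replicate 2, with *Ctrb1*, a chymotrypsinogen, highest at 41.5, and 8.62 to 18.9 in the other 4. No acinar marker was listed at 0. The sum of 5 endothelial markers was lowest there, 119 FPKM against 164 to 216. The sum of 8 beta cell markers was highest there, 333893 FPKM against 236425 to 290775, and it was carried by *Ins2*, the most abundant in every library, *Ins1* and *Iapp*. The beta cell genes *Mafa*, *Nkx6-1* and *Ucn3* were instead lowest there, at 203, 87.2 and 514 FPKM against 266 to 287, 108 to 121 and 599 to 622, and *Slc2a2* (83.3) and *Pdx1* (80) were within or close to the range of the other 4. In wild-type replicate 3 the endothelial genes *Pecam1*, *Cdh5* and *Kdr* summed to 146 FPKM, against 28.1 to 62.5 in the other 5. In wild-type replicate 2 the stromal sum, led by *Col1a1*, was 27.1 FPKM against 1.46 to 5.72. Between genotypes, the macrophage genes *Adgre1*, *Csf1r* and *Cd68* summed to 22.1 to 57.3 FPKM in wild-type and 17.2 to 27.4 in PDX1P33T, and the 3 endothelial genes to 22.0 to 51.4 in PDX1P33T. None of these 6 genes was called. The part of these cells in the values of the 9 genes was not tested.

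*Smarca4* far exceeded its alternative. Within a PDX1P33T library it was 5.68 ± 0.789 times as high as *Smarca2* (range 4.40 to 6.25, SD, n = 5), which had 4.05, 3.99, 4.27, 4.14 and 4.63 FPKM. The lowest ratio was again that of replicate 2. Among 26 other SWI/SNF subunit genes only *Bcl7b*, a small accessory subunit, had a higher mean than *Smarca4*, at 31.4 ± 3.62 FPKM. The paired scaffolds *Smarcc2* and *Smarcc1* had 21.2 ± 2.88 and 5.38 ± 0.632. Of the subunits that set the class of complex, *Arid1a*, *Arid1b* and *Arid2* had 6.28 ± 0.956, 2.51 ± 0.372 and 2.63 ± 0.106 FPKM. *Actl6b*, the actin-related subunit of neuronal complexes, was at 5.84 ± 0.494, next to its widely expressed relative *Actl6a* at 6.41 ± 2.03. *Dpf1*, another subunit known from neurons, was the lowest at 0.0182 ± 0.0131 FPKM.

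For 11 of these 26 genes a wild-type row was known, and 0 were called. Their median log2 fold change was -0.16, beside -0.06 over all 4725 genes and -0.04 over the 3455 matched by length and level. *Smarcd1* and *Actl6a* had an unadjusted p under 0.05, at log2 fold changes of -0.26 and 0.56 (limma, adjusted p = 0.499 for both). The rows of both were identified by listed reads, where such a p is common. The 1673 genes so placed had a median log2 fold change of -0.32.

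*Chd4* led its own family too. In PDX1P33T libraries it was 1.76 ± 0.146 times as high as *Chd3* and 6.61 ± 0.346 times as high as *Chd5*, the alternative ATPases of NuRD. Relative to their means both ratios varied less between libraries than *Chd4* did, and *Chd3* (9.02 to 14.7 FPKM) and *Chd5* (2.18 to 3.75) were spread too. Of 14 other NuRD genes the histone chaperone *Rbbp7* was highest (55.3 ± 8.68) and the scaffold *Gatad2b* lowest (2.98 ± 0.468). The deacetylases *Hdac1* and *Hdac2* had 16.8 ± 1.18 and 13.6 ± 1.04 FPKM, below *Chd4* at its mean. Of the 6 with a wild-type row 0 were called. Before adjustment 4 had a p under 0.05, as had 38.6% (higher) and 48.5% (lower) of all genes placed by listed reads, the way all 4 were placed. They had log2 fold changes of 0.32 for *Rbbp7*, 0.40 for *Rbbp4*, -0.24 for *Gatad2a* and -0.47 for *Mbd3*. Their adjusted p lay between 0.499 and 0.531 (limma).

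**Figure D4:**
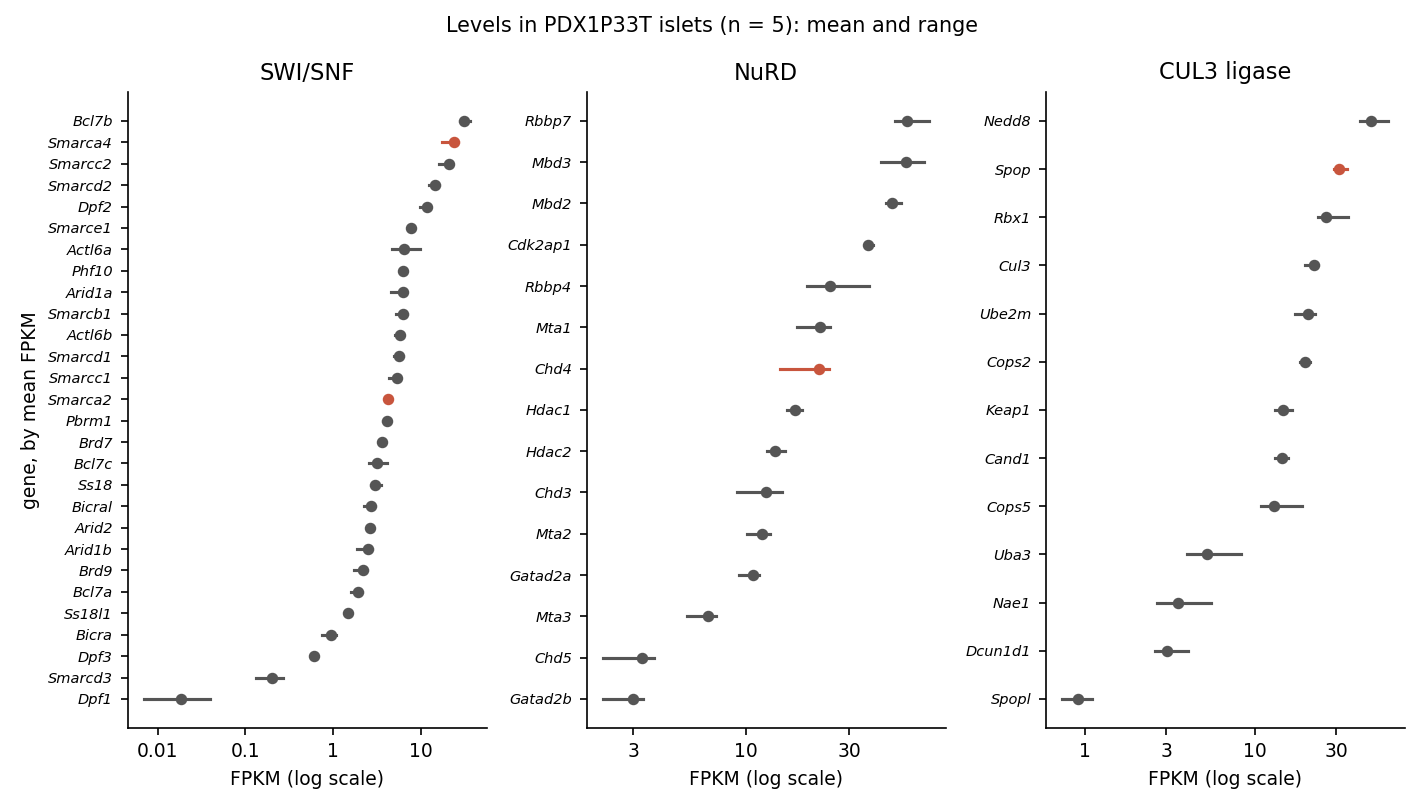
Mean FPKM (points) and range (lines) over the 5 PDX1P33T libraries, on log axes, for genes of SWI/SNF, NuRD and the cullin 3 ligase, with *Smarca4*, *Smarca2*, *Chd4* and *Spop* in red. *Smarca4* stands second of 28, *Smarca2* near the middle, *Chd4* seventh of 15 and *Spop* second of 13.

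*Spop*, the receptor of the ligase, was the highest of the 9 in PDX1P33T and had a coefficient of variation of 6.79%, with 29.1, 34.8, 31.2, 30.5 and 30.7 FPKM. Replicate 2 was the high one here. It was 34.7 ± 4.01 times as high as its close relative *Spopl* (0.911 ± 0.130 FPKM) and 1.41 ± 0.0715 times as high as *Cul3*, the scaffold it binds (22.2 ± 1.63). The RING partner *Rbx1* stood at 26.3 ± 4.96 and the ubiquitin-like activator *Nedd8* at 48.4 ± 7.81, the highest of the 12 ligase genes. *Dcun1d1*, which promotes attachment of NEDD8 to cullins, was at 3.04 ± 0.577. Of the 7 ligase genes with a wild-type row 0 were called. *Spopl* and *Dcun1d1* had the smallest p, at log2 fold changes of 0.36 and 0.27 (limma, adjusted p = 0.503 and 0.616). *Cul3* had a log2 fold change of 0.09 (limma, adjusted p = 1).

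For *Spop* itself 5 wild-type rows had its length of 3159 bases, and 2 of them lay within 4-fold of its level. The first held 31.7, 29.3, 28.7, 29.7, 29.0 and 29.8 FPKM, close to the PDX1P33T values. The second held 6.85, 11.5, 35.1, 13.2, 13.2 and 14.7, and with its peak in replicate 3 it followed *Pecam1*, the endothelial adhesion molecule, at 7.53, 11.6, 38.3, 14.8, 15.6 and 16. *Plpp3*, a lipid phosphatase of the same exon length that endothelial cells express, had 10.4, 6.31, 7.25, 10.4 and 7.63 FPKM in PDX1P33T, next to 13.4, 6.50, 9.37, 13.9 and 9.53 for *Pecam1*. With the first row given to *Spop*, its log2 fold change was 0.07 (SE 0.0725, 95% interval -0.08 to 0.23, limma, adjusted p = 1) and the exact permutation p was 0.123. Leaving out 1 library at a time, the log2 fold change ran from 0.03 (without PDX1P33T replicate 2) to 0.10 (without PDX1P33T replicate 1). With the rows exchanged the ratio of wild-type to PDX1P33T would be 0.504 for *Spop* and 3.53 for *Plpp3*, instead of 0.949 and 1.87. This choice was made after the values were seen and took the row nearest in level to PDX1P33T, which favours a small fold change. The fold change, interval and p of *Spop* depend on it and are no test of a genotype difference.

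**Figure D5:**
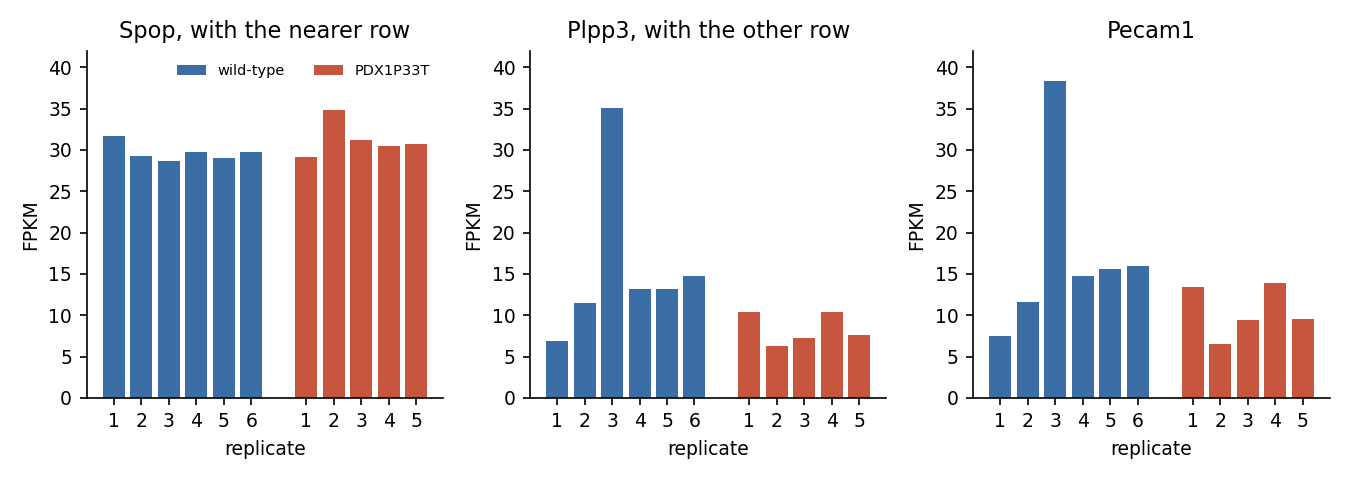
FPKM per library for *Spop* with the wild-type row nearest its level, for *Plpp3* with the other wild-type row of that length, and for *Pecam1* (blue wild-type, red PDX1P33T). The first panel is flat between 28.7 and 34.8, while the other 2 share a peak in wild-type replicate 3 (35.1 and 38.3).

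*Psmd9* had a low FPKM for a proteasome factor, over a length of 7248 bases that takes in all its annotated exons. It had 2.98, 3.46, 2.64, 2.94 and 2.94 FPKM in PDX1P33T, between 524 and 786 reads. All 20 other 19S genes in the table had a higher mean, from *Psmd5* (4.98 ± 0.302), like *Psmd9* an assembly chaperone, to the ATPase subunit *Psmc5* (83.3 ± 3.78), with a median of 28.6 FPKM. The third chaperone, *Psmd10*, was at 12.5 ± 3.85. The single wild-type row of its length was not within 4-fold, so its genotype difference is not analysed here. Of the 4 other 19S genes with a wild-type row 0 were called. *Psmd1* and *Psmd4* had log2 fold changes of 0.22 and -0.10 (limma, adjusted p = 0.901 and 1).

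*Pcif1*, the cap methyltransferase, had 9.42, 9.28, 12.0, 9.28, 9.82 and 10.1 FPKM in wild-type and 9.37, 8.56, 9.12, 9.49 and 9.44 in PDX1P33T. Wild-type replicate 3 was the high value, and 3 of 6 wild-type libraries were above all mutant ones. The log2 fold change was -0.11 (SE 0.0825, 95% interval -0.29 to 0.07, limma, adjusted p = 1), and the exact permutation p was 0.11. Without wild-type replicate 3 the log2 fold change was -0.06. It turned to 0.12 (SE 0.0713, limma, adjusted p = 1) with libraries corrected for GC content.

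The 11 listed factors that bind DNA beside PDX1 had a median of 27.2 FPKM in PDX1P33T, above the mean of 8 of the 9 genes (all but *Spop*). The highest was *Mafa*, an activator of the insulin genes, at 259 ± 32.5 FPKM. *Mafa* had a log2 fold change of -0.27 (limma, adjusted p = 0.792). *Tcf3*, the E-protein that Bridge-1 binds, had 7.55 ± 1.28 FPKM and a log2 fold change of -0.30 (limma, adjusted p = 0.503), also on a row identified by listed reads. Among 7 kinases known to act on PDX1, *Akt1* was highest at 43.8 ± 4.01 and *Pask* lowest at 0.162 ± 0.0411. *Hipk2* and *Csnk2a1* had log2 fold changes of -0.23 and 0.09 (limma, adjusted p = 0.841 and 1). Of the 3 factors and 3 kinases with a wild-type row 0 were called.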

How the data were processed

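RNA of whole islets was measured in 6 wild-type and 5 PDX1P33T libraries. The authors trimmed, aligned and counted the reads (fastp 0.23.1, HISAT2 2.0.5 and featureCounts 1.5.0-p3 per the submitters' processing notes, which also name DESeq2 1.20.0, GRCm39 and mm39) and deposited FPKM per gene ID, after dropping genes that lacked a value in over 20% of the replicates of both genotypes. Whether the libraries were stranded is not clear from the sources used here, so overlapping genes are uncertain. GC content comes from GENCODE vM21 on GRCm38, as do the exon lengths with which recovered lengths of the genes described here were compared. The length used for a row was recovered from its FPKM, as described next.

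Most wild-type FPKM stand on rows of other genes. The smallest whole number from 20 to 130000 that turned every FPKM of a row into whole reads was used as its length, which recovered 98.3% of the lengths the study lists. A wild-type row was accepted with the same length, group means within 4-fold, no rival within 16-fold (4-fold for the looser limit), a value in 80% of the replicates and at least 100 reads in each genotype. This gave 3455 genes. Reads listed by the study, of which only a part was held here, gave 1712. The total was 4764 (24.6%), of which 39 listed at 0 in every PDX1P33T library were left out. The list as held here names none of the 9 genes.

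limma 3.58.1 in R 4.3.3 (trend and robust, no covariates) was fitted to log2(FPKM + 0.1), with fold changes on that scale and p-values adjusted over 19329 IDs, genes without a row counted as unchanged. Single genes and the ratio were tested by two-sided exact permutation over all choices of 5 of the 11 libraries, whose smallest p is 0.00216. With libraries left out there are fewer choices and the smallest p is larger. The fit and the matching were tested on simulated data. The study calls the libraries biological replicates and gives several mice for each, so p-values measure the spread between libraries, which may be pools. Alternatives were other pseudocounts (0.01, 1), a filter at mean FPKM 1, no trend or robust option, median centring, replicate blocks, other matching limits, a log2 threshold of 1.5 and leaving out each library. The GC correction, the fit without 4 libraries and the row of *Spop* were added after the data were seen.

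The 9 genes, the lists and the markers were chosen with earlier results of these data known. All 9 are named in every result, and from each list the genes highest and lowest in PDX1P33T, the 2 with the smallest limma p and any called. Some genes of the lists are not reported here. Subunits and paralogs beyond that rule were named after their values were seen. Figures were drawn with matplotlib 3.10.9, and tables made with pandas 2.3.3 and numpy 2.4.6 under Python 3.11.15.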

Additional observations from a re-analysis of the deposited data

Results flagged for a closer look

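Of 19 sets of 5 or 6 libraries examined (the values of each gene within a genotype, and the 2 ratios), 5 held a library far from the others by Dixon's criterion, which chance meets in about 1 of 20. *Smarca4*, *Crebbp* and *Chd4* were at 17.5, 1.49 and 14.4 FPKM in PDX1P33T replicate 2, below 24.8 to 26.5, 2.13 to 2.31 and 22.4 to 24.2 in the other 4. These 3 come from the same library and are not independent. *Pcif1* was at 12.0 FPKM in wild-type replicate 3, above 9.28 to 10.1 in the other 5. The log2 ratio of *Ep300* to *Crebbp* was 0.592 in wild-type replicate 1, above -0.0809 to 0.17 in the other 5, just past the criterion.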

How the results depend on the processing

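None of the 7 genes compared was called under any alternative run, and their adjusted p (limma) stayed at 0.409 or above. The unadjusted limma p of *Smarca4* was 0.0386, 0.0456 and 0.0463 without PDX1P33T replicate 3, PDX1P33T replicate 4 and wild-type replicate 4. It was above 0.05 in every other run, and 0.397 with GC correction. With GC correction *Pcif1* turned to 0.12 and *Crebbp* to 0.01 on the log2 scale. The same correction took *Ep300* from -0.12 to -0.04 and *Spop* from 0.07 to 0.03. The fit without the 4 libraries that stood apart gave -0.03 for *Ep300* and *Crebbp*, -0.06 for *Pcif1* and 0.04 for *Spop*. Leaving out each library in turn, *Crebbp* ranged from -0.16 to 0.02, positive only without PDX1P33T replicate 2, and the difference in the *Ep300* to *Crebbp* ratio from -0.08 to 0.06, which includes both signs. Without the 4 libraries that stood apart that difference was 0.00. *Setd7* ranged from 0.01 to 0.15, *Ep300* from -0.18 to -0.06, *Pcif1* from -0.13 to -0.06 and *Spop* from 0.03 to 0.10. *Smarca4* and *Chd4* ranged from -0.27 to -0.12 and from -0.27 to -0.08, the weakest both without PDX1P33T replicate 2. The log2 ratio of *Smarca4* to *Smarca2* went from 2.49 to 2.25 with a pseudocount of 1, which is larger against the lower gene. The number of genes called, 4, became 43 without the 4 libraries, 2 at a log2 threshold of 1.5, 8 with the looser rival limit, which brings more genes in, and 3 to 8 leaving out 1 library, 8 without wild-type replicate 1. Same-numbered libraries did not deviate together (r from -0.552 to 0.0731 over genes, titles or library names). Such deviations also carry the GC trend of each library, and whether same-numbered libraries share a source was not tested. With the replicate block by titles 1 gene was called, by library names 3, and none of the 7 genes compared. The 9 genes had 479 reads or more in each PDX1P33T library, and the part of depth in their spread was not tested.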
